A study of Mus musculus with 4 samples.

Results

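Autophagy genes were examined in 2 genome-wide maps of NR1D1, also called REV-ERB alpha, a repressor of the nuclear receptor family that belongs to the circadian clock. The genes were 10 named members: Ulk1, Rb1cc1, Wipi1, Atg12, Map1lc3a, Map1lc3b, Gabarap, Sqstm1, Ctsd and Tfeb, out of 21883 protein-coding genes on the mouse chromosomes used. Every peak that overlapped the RefSeq span of a member, extended by 10 kb on each side, was taken, which gave 8 of the 7377 peaks of the PBS list and 10 of the 8816 peaks of the vasostatin-2 list. The members were selected on earlier results from these same lists, among them the fragments and fold enrichment of some of these peaks, so their counts below are descriptions. Both maps came from primary smooth muscle cells of the aorta of wild-type (WT) mice, cultured in DMEM with serum and kept for 24 h with phosphate-buffered saline (PBS) or with vasostatin-2, a peptide from chromogranin A. They were made by CUT&Tag, in which an antibody brings a transposase to the bound protein so that the DNA beside it is cut out and sequenced. There was 1 NR1D1 library per treatment and all libraries carry the same batch label. The IgG control libraries that the labels name were not analysed here. No value has a replicate error, no test of a treatment effect was made, and differences are between 2 libraries.

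Autophagy encloses parts of the cytoplasm in a double membrane, the autophagosome, and delivers them to the lysosome for breakdown. The ULK1 kinase and its scaffold FIP200, the product of Rb1cc1, start the process. WIPI proteins read the lipid signal on the growing membrane, and ATG12 and the LC3 and GABARAP families are the ubiquitin-like proteins coupled to other proteins or to lipid there. The receptor p62, the product of Sqstm1, brings cargo to LC3, cathepsin D is a protease of the lysosome, and TFEB is a transcription factor that switches on lysosome and autophagy genes. NR1D1 is known to repress autophagy genes in skeletal muscle, Ulk1 among them. The usual NR1D1 site is the core AGGTCA behind an A/T-rich stretch, and TFEB binds an extended E-box around CACGTG.

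The DNA just upstream of a member's start site lay at least partly under a peak in 4 members, Ulk1, Wipi1, Ctsd and Tfeb. Those stretches are shown first. Not every summit falls within them. The Wipi1 vasostatin-2 summit lay 332 bp and the Ctsd PBS summit 317 bp upstream of the start site. The Tfeb vasostatin-2 summit lay 201 bp downstream of its start site. RefSeq promoter windows on GRCm38.p6, the assembly of mm10, reach from 250 bases before a start site to 50 after it. They matched 7 of the 10 members with 9 windows; Rb1cc1, Atg12 and Map1lc3a had no match. Printed are the 250 bases before the start, 5′ to 3′ on the strand of the gene. The Ulk1 stretch is chr5:110810082-110810331 on the minus strand, Wipi1 chr11:109611390-109611639 on the minus strand, Ctsd chr7:142387828-142388077 on the minus strand, and Tfeb chr17:47737681-47737930 on the plus strand, before the second of its 3 start sites. Capitals mark, on either strand, the NR1D1 core AGGTCA, the E-box with the letters CACGTG and a GC-rich element, the GC box, spelled GGGCGG.
Ulk1: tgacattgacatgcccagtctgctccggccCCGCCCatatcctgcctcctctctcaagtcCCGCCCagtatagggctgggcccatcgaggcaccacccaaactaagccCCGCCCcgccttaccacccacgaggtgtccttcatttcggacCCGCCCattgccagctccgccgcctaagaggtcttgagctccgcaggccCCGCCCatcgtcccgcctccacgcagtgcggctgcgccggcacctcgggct
Wipi1: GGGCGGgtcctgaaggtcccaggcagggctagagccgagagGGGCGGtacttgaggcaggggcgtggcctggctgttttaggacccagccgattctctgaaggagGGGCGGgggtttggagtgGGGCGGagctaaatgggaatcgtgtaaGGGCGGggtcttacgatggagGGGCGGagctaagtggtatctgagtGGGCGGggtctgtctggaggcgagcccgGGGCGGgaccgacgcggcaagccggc
Ctsd: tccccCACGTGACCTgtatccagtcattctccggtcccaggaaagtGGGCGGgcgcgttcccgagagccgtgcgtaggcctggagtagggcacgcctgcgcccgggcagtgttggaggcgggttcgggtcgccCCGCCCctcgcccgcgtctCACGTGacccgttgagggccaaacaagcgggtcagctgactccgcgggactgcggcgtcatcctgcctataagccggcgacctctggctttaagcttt
Tfeb: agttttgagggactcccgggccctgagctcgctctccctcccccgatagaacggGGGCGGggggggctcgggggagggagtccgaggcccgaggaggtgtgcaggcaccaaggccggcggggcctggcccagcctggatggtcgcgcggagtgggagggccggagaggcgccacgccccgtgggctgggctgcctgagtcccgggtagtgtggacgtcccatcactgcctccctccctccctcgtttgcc

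The longer NR1D1 forms, TAGGTCA with or without the A/T-rich stretch before it and the variant that starts with TGG in place of TAG, were found in 0 of the 9 member windows on either strand. TAGGTCA occurs in 2.61% of all 32851 windows of the same length and the variant TGGGTCA in 3.98%. With shares this low, 0 of 9 windows says little about the members. The core AGGTCA, which TAGGTCA contains, present in 16.3% of all windows, was found in the Ctsd window alone. There it shares 2 bases with one of 2 CACGTG E-boxes, a motif that 7.15% of all windows hold. The CLEAR palindrome, the extended E-box of TFEB that contains CACGTG, was found in 0 of the 9 member windows, against 0.326% of all. The GC box stood in all 4 member windows under a peak, with 5 copies in the Ulk1 stretch, 8 in Wipi1, 2 in Ctsd and 1 in Tfeb. It also stood in 4 of the 5 member windows without a peak. Of all windows 35.7% hold it, and of windows under a peak 77.0% for PBS and 78.1% for vasostatin-2. GC content of the 4 windows was 67.3% to 70.0%, beside medians of 52.7% over all windows and 63.7% over windows with a PBS peak. These are counts of letters and do not say which protein was bound. Only these windows were searched, so the DNA under peaks elsewhere, as at Rb1cc1, Atg12 and Map1lc3a, was not.

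All 10 members had a peak in at least 1 list, as did 40.0% of protein-coding genes. In the PBS list 8 members had a peak, where the share of protein-coding genes with one was 29.5%. In the vasostatin-2 list 6 members did, beside 28.0%. Wipi1, Gabarap, Ctsd and Tfeb had a peak in both lists (17.5% of protein-coding genes), and at each of them a peak of one list overlapped a peak of the other by at least 1 bp (13.5%). At Rb1cc1, Map1lc3a, Map1lc3b and Sqstm1 only the PBS list held a peak (12.0%), and at Ulk1 and Atg12 only the vasostatin-2 list (10.5%). The members were picked in part for these peaks, so nothing is read from the distance to the background.

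Member peaks held few fragments, as peaks did throughout both lists. The number of fragments at each summit was recovered from the deposited fold enrichment and -log10 p, and fold enrichment is the summit over its local background. Fragments at the member summits ran from 6 to 25 with a median of 10.0 in the PBS list, and from 7 to 22 with a median of 9.0 in the vasostatin-2 list. Over all peaks the medians were 8 and 7. From the recovered backgrounds the vasostatin-2 library was 1.32 times as deep as the PBS one, and "at the PBS depth" below means divided by that factor. A factor from the median of all overlapping pairs was 0.857, in the opposite direction. Statements below on what would have been called in the other list use 1.32 alone. Deposited -log10 q of member peaks ran from 1.39 to 15.4 in PBS and from 2.05 to 16.5 in vasostatin-2. Requiring at least 5 left 3 members in each list: Rb1cc1, Wipi1 and Gabarap in PBS, and Ulk1, Wipi1 and Tfeb in vasostatin-2. The share of all protein-coding genes under this rule is not given.

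**Figure D1:**
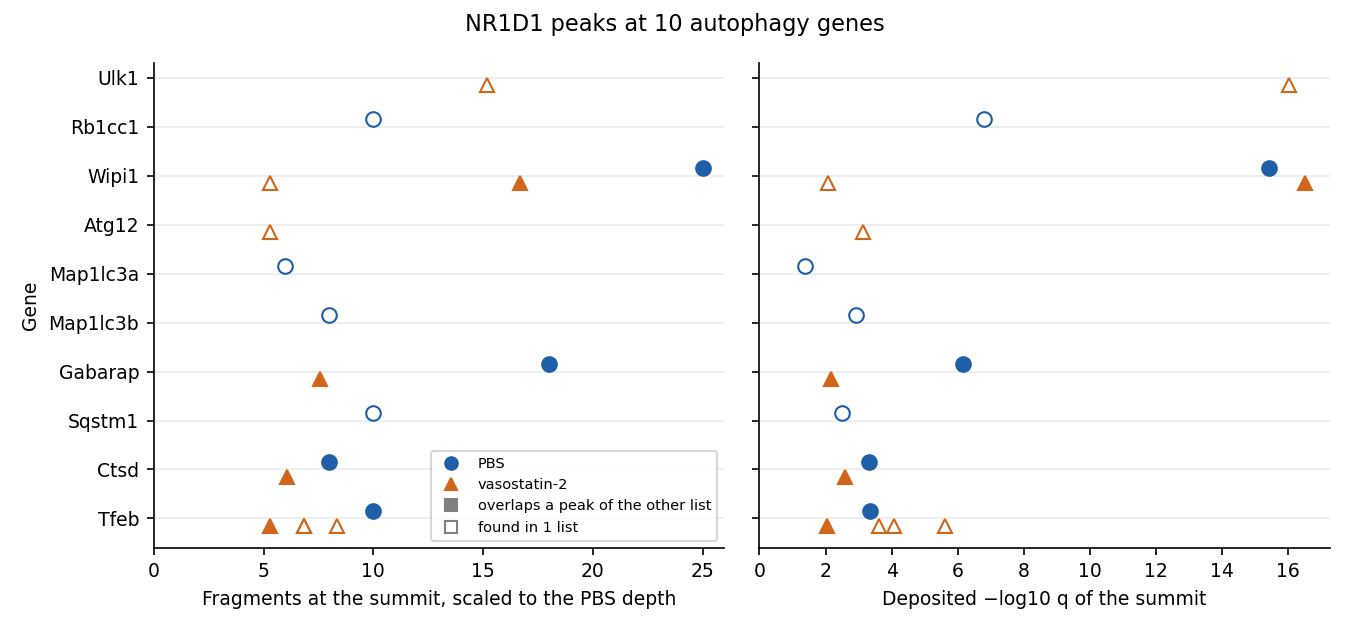
Summit fragments scaled to the PBS depth (left) and deposited -log10 q (right) of the 18 peaks at the 10 genes, circles for PBS and triangles for vasostatin-2, filled where the peak overlaps one of the other list; 2 Tfeb triangles coincide on the left at 6.83. Wipi1 in both lists and Ulk1 in the vasostatin-2 list stand to the right of the other peaks on the q axis, at 15.4 to 16.5.

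The initiation genes Ulk1 and Rb1cc1 each had 1 peak at a gene end, in opposite lists. The Ulk1 peak was in the vasostatin-2 list, on chromosome 5, 110809992 to 110810298, with its summit 176 bp upstream of the start site. It had 20 fragments, 11.03-fold enrichment, -log10 p of 21.0 and -log10 q of 16.0, which ranks it 195th of 8816 by q, and it covers most of the Ulk1 stretch printed above. The PBS list had no peak within 10 kb of Ulk1. At the PBS depth the vasostatin-2 summit equals 15.2 fragments. With the same background per unit of depth, 6 fragments would have been enough for a PBS peak, and 15 would have been called at any background up to 5.0 fragments, which 1.04% of PBS peaks exceed. A summit of that size at the Ulk1 start would thus have been listed in PBS under these assumptions, while a summit of fewer than 6 fragments would not.

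Among promoter windows a vasostatin-2 peak of this size without a PBS counterpart was rare. Of 68 vasostatin-2 peaks with 18 to 22 fragments in a promoter window of any gene, 67 (98.5%) overlapped a PBS peak, and the Ulk1 peak was the exception. Without regard to promoters 161 of 186 such peaks (86.6%) did. Of the 384 promoter-window peaks found in the vasostatin-2 list alone, the Ulk1 peak had the most fragments, ahead of 16 and 15, and the median was 7. In the PBS list 20 of 1137 promoter-window peaks found there alone had at least 20 fragments, up to 33. The set of windows is incomplete, with a match for 7 of the 10 members. Peaks at starts without a window are therefore not among the 68 or the 384. Ulk1 was proposed for description with its peak known, so its place at the top is not a test.

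**Figure D2:**
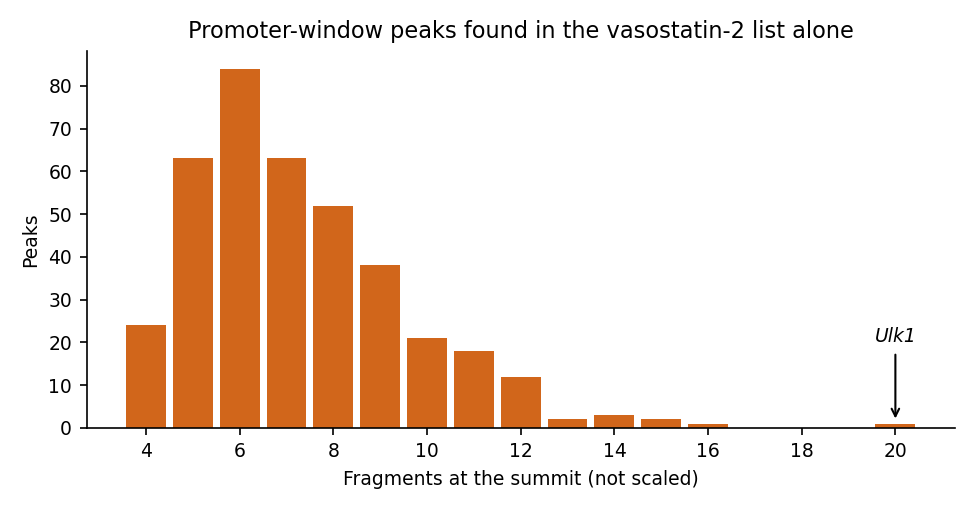
Number of peaks by summit fragments (not scaled for depth) for the 384 peaks that lie in a promoter window and overlap no PBS peak. The bar at 20 fragments is the Ulk1 peak alone, and the next bar is at 16.

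A peak of both lists lay just outside the Ulk1 window, at an end of the neighbouring gene Ep400, a chromatin remodeller. It was 13367 bp from Ulk1 in the PBS list, with 39 fragments and 11.9-fold enrichment, and 13438 bp away in the vasostatin-2 list, with 25 fragments and 11.3-fold. The PBS summit held more fragments there, unscaled. The same order was found in 84.4% of all overlapping pairs with at least 22 fragments in PBS, a choice that favours it. Whether this pair bears on the Ulk1 start was not tested.

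At Rb1cc1 the PBS peak was on chromosome 1, 6214604 to 6214922, with its summit 70 bp inside the lower-coordinate end of the gene. It had 10 fragments, 7.20-fold enrichment and -log10 q of 6.80. No vasostatin-2 summit was nearer than 874352 bp. At the vasostatin-2 depth 10 fragments correspond to 13.2, and 5 would have been called with the same background per unit of depth. Of all PBS peaks with 9 to 11 fragments 44.0% overlapped a vasostatin-2 peak, so a missing counterpart at this size was common.

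Wipi1, the lipid-binding member, had the peak with the most fragments of the 10 genes, in both lists. The PBS peak on chromosome 11, 109611359 to 109612036, had its summit 217 bp upstream of the start site, with 25 fragments and 8.94-fold enrichment. The vasostatin-2 peak, 109611424 to 109612029, lay wholly within it, with the summit 332 bp upstream, 22 fragments and 10.7-fold. Fold enrichment was thus higher in the vasostatin-2 list while fragments were fewer. The backgrounds behind the folds correspond to 97.5 fragments in the 10 kb around the summit in PBS and 63.0 in vasostatin-2, before scaling for depth. At the PBS depth the vasostatin-2 summit equals 16.7 fragments, a log2 ratio of -0.58 (95% exact binomial interval -1.48 to 0.30, counting error only). The interval includes 0, so at this depth a difference between the libraries was not detectable. A second vasostatin-2 peak, 109565389 to 109565651 with 7 fragments and 4.16-fold, lay 8065 bp beyond the other end of Wipi1 and inside the neighbour Arsg. Of the member peaks it lay farthest outside a gene span, 7870 bp from its edge to the end of Wipi1.

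Of the ubiquitin-like genes only Gabarap had peaks assigned in both lists. The Gabarap peaks, on chromosome 11, 69995481 to 69995775 in PBS and 69995546 to 69995732 in vasostatin-2, had summits 13 bp apart. They lay 764 and 751 bp past the end of Gabarap but 53 and 66 bp from the start of Phf23, which encodes a PHD finger protein, and overlapped a Phf23 promoter window. The window of the Gabarap start itself held no peak in either list. Fragments were 18 in PBS and 10 in vasostatin-2, with 5.20-fold and 3.86-fold enrichment and -log10 q of 6.15 and 2.18. The log2 ratio after division by the depth factor of 1.32 was -1.25 (95% exact binomial interval -2.52 to -0.05), the lowest of the 4 shared members. The interval includes 0 with no depth factor (-2.13 to 0.34) and with a factor from the median of all overlapping pairs (-1.90 to 0.57). The nearest peaks left out by the 10 kb rule were a shared pair 10732 and 10728 bp from Gabarap near an end of Ctdnep1, with 10 and 8 fragments.

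Atg12 had a vasostatin-2 peak on chromosome 18, 46741638 to 46741849, where the gene overlaps the end of Ap3s1, which encodes a subunit of the AP-3 adaptor. The summit lay 68 bp outside Atg12 and 98 bp inside Ap3s1, so the peak cannot be assigned to one of them by position. It had 7 fragments, 5.02-fold enrichment and -log10 q of 3.12. At the PBS depth this is 5.31 fragments, and 5 were needed for a PBS call. Under the inferred depth factor the PBS library could thus barely have shown it.

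The LC3 genes had PBS peaks alone, both weak. The Map1lc3a peak on chromosome 2, 155276825 to 155277028, lay inside the gene, 605 bp from its lower-coordinate end, with 6 fragments, 3.61-fold enrichment and -log10 q of 1.39, the lowest of all member peaks. In its list 1.66% of peaks ranked at or below it by fold. The Map1lc3b peak on chromosome 8, 121585368 to 121585574, was 4923 bp upstream of the start site, with 8 fragments and 4.76-fold. Of PBS peaks with 6 to 8 fragments 23.2% overlapped a vasostatin-2 peak. A pair of stronger shared peaks lay just outside the Map1lc3b window, 11232 and 11273 bp away and near an end of Fbxo31, with 18 and 13 fragments.

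Sqstm1, the cargo receptor, had a PBS peak on chromosome 11, 50209966 to 50210189, with the summit 784 bp downstream of the start site inside the gene. It had 10 fragments, 4.10-fold enrichment and -log10 q of 2.51. A background of 86.0 fragments in 10 kb stood behind this fold, against 27.0 at Rb1cc1, where the same number of fragments gave 7.20-fold. The 9 fragments needed for a vasostatin-2 call were fewer than the 13.2 that correspond to the PBS summit, and the nearest vasostatin-2 summit was 78775 bp away. As at Rb1cc1, a missing counterpart was common at this size: 44.0% of PBS peaks with 9 to 11 fragments overlapped a vasostatin-2 peak.

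Ctsd, the lysosomal protease gene, had a peak of 8 fragments in each list. They overlapped by 91 bp, but the summits lay 312 bp apart: 317 bp upstream of the start site in PBS (chromosome 7, 142387982 to 142388198, 5.05-fold) and 5 bp upstream in vasostatin-2 (142387799 to 142388072, 4.53-fold). Of all 2651 overlapping pairs 18.1% had summits more than 200 bp apart. The log2 ratio after division by the depth factor was -0.40 (95% exact binomial interval -2.01 to 1.21), and with the factor from all pairs 0.22, so these counts cannot tell the libraries apart. Both E-boxes in the printed Ctsd stretch lie under at least 1 of these peaks.

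Tfeb, the transcription factor gene, had 1 PBS peak and 4 vasostatin-2 peaks, all inside the gene on chromosome 17. At its second start site the PBS peak, 47737605 to 47738357, was 753 bp wide with the summit 17 bp upstream, 10 fragments and 4.78-fold enrichment. The vasostatin-2 peak there, 47737878 to 47738183, was 306 bp wide and lay within it, with the summit 201 bp downstream, 7 fragments and 4.14-fold. The log2 ratio was -0.91 (95% exact binomial interval -2.54 to 0.63), which includes 0.

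The other 3 Tfeb peaks were found in the vasostatin-2 list alone and lay deeper in the gene, 8136, 22176 and 23841 bp downstream of that start site. They spanned 47745923 to 47746248, 47759939 to 47760122 and 47761658 to 47762024. The peaks had 9, 9 and 11 fragments and 5.55-fold, 5.23-fold and 6.40-fold enrichment, each more than the vasostatin-2 peak at the start site. At the PBS depth they equal 6.83, 6.83 and 8.34 fragments, and 5, 6 and 6 would have been called in PBS with the same background per unit of depth. Of protein-coding genes 0.745% had 3 or more such peaks within 10 kb, a share that does not take the 55380 bp length of Tfeb into account. The gene table gives no exons, so introns and exons were not told apart.

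**Figure D3:**
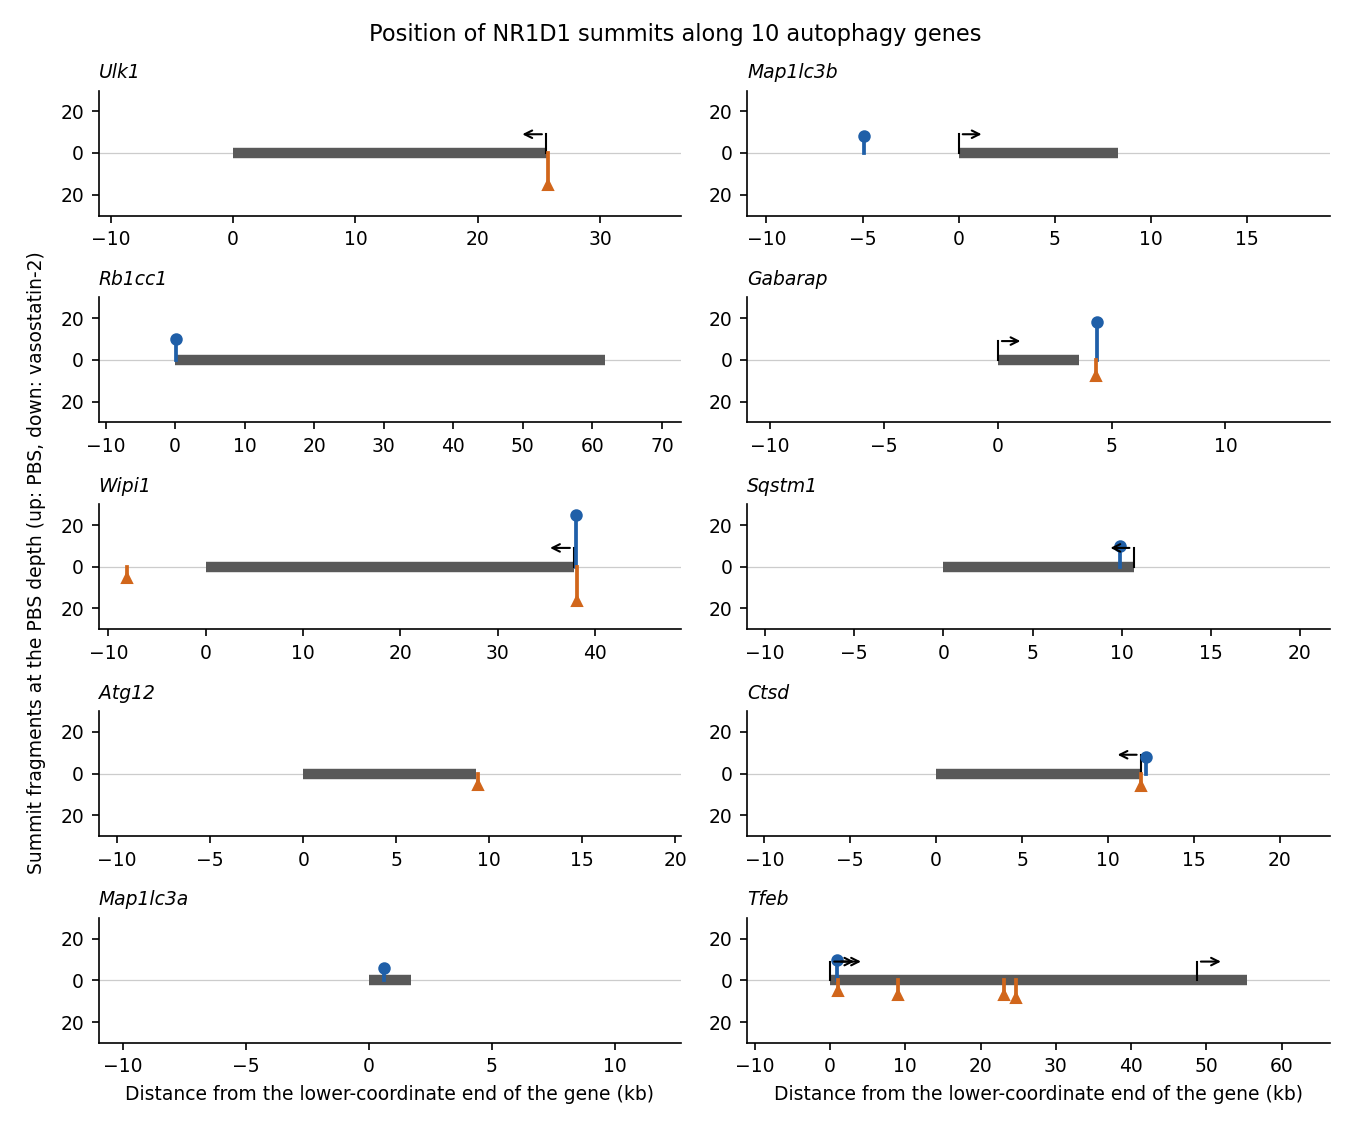
Positions of the 18 summits along the 10 genes, in kb from the lower-coordinate end of each gene (grey bar), with arrows at RefSeq start sites where a promoter window was matched; stems give summit fragments at the PBS depth, upward for PBS and downward for vasostatin-2. Stems of both lists stand together at Wipi1, Gabarap, Ctsd and the first part of Tfeb, and the 3 vasostatin-2 peaks within Tfeb have no PBS stem opposite.

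By position, 7 of the 8 PBS peaks had their summit within 1 kb of an end of the member, and 5 of the 10 vasostatin-2 peaks. The share over all peaks is not given for this measure, so these counts only describe. The overlapping Tfeb pair fell on either side of the limit, at 877 bp in PBS and 1095 bp in vasostatin-2. Map1lc3a is 1710 bp long, so any summit inside it counts as near an end. An own promoter window was overlapped by 3 PBS peaks and 4 vasostatin-2 peaks. With the Phf23 window under the Gabarap peaks, some promoter window was overlapped by 4 of 8 and 5 of 10. Rb1cc1, Atg12 and Map1lc3a had no window, so their peaks could not count for their own. Of all peaks within 10 kb of a protein-coding gene, 38.9% in PBS and 23.6% in vasostatin-2 overlapped some promoter window. The summit was nearer to an end of another protein-coding gene than to the member's own for 3 of the 18 peaks, both at Gabarap and the distal one at Wipi1.

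Of the member peaks 4 of 8 in PBS (50%) and 4 of 10 in vasostatin-2 (40%) overlapped a peak of the other list. With 50% reciprocal overlap, or summits within 200 bp, 2 pairs were left, those of Wipi1 and Gabarap. All peaks within 10 kb of a protein-coding gene overlapped a peak of the other list at 37.1% and 35.8%. The members were picked in part for their peaks, and 4 of the 10 vasostatin-2 peaks lie at Tfeb. No test against the shares over all such peaks was therefore made, and nothing is read from the distance. At the 4 shared members the PBS summits held 61 fragments in all and the vasostatin-2 summits 47, which equal 35.6 at the PBS depth. The log2 ratio of these sums was -0.78 (95% exact binomial interval -1.36 to -0.20, counting error only). That interval pools the fragments of 4 genes as a single count, and genes are not replicates of a treatment. The single intervals of Wipi1, Ctsd and Tfeb include 0, and the Gabarap peaks lie at the Phf23 start. The 4 single ratios ran from -1.25 to -0.40 with a median of -0.75. The median over all 2651 overlapping pairs was -0.62 and 84.0% of them were below 0. Among the 887 pairs of 15 to 50 fragments in promoter windows the median was -0.87. The lower vasostatin-2 values at these autophagy genes were therefore near those of shared peaks in general. These values rest on the inferred depth factor. With none the ratio of the sums was -0.38 (-0.96 to 0.20), and scaled by the median of all pairs it was -0.15 (-0.73 to 0.42).

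**Figure D4:**
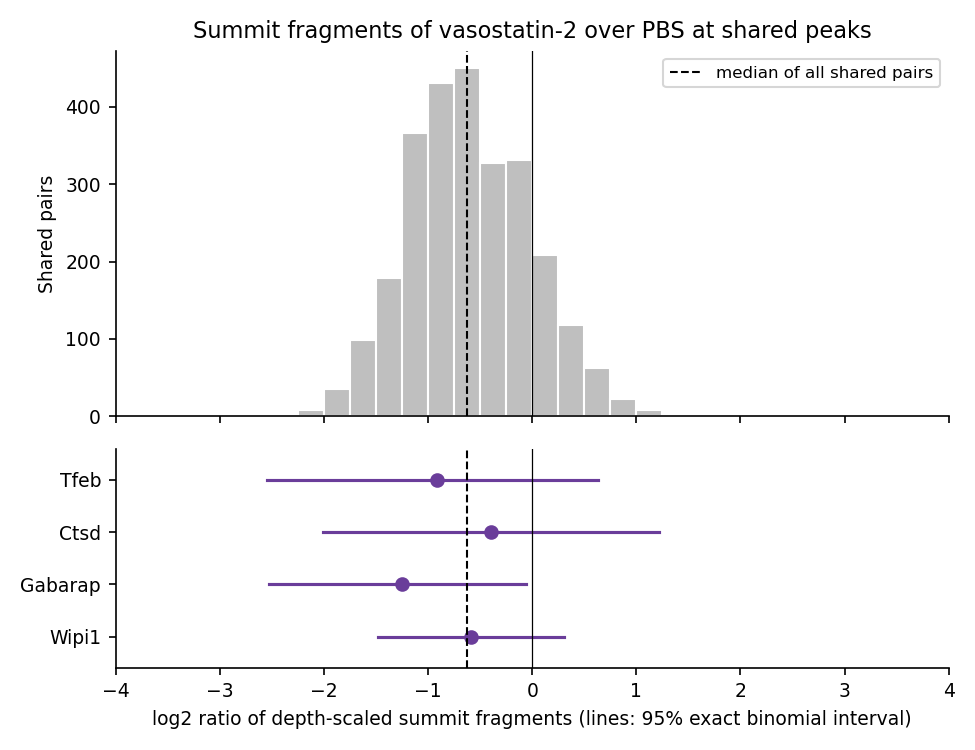
Upper panel: log2 of vasostatin-2 over PBS summit fragments, scaled for depth, for the 2651 overlapping pairs, as counts per bin; lower panel: the 4 shared member peaks with 95% exact binomial intervals. The 4 points lie between -1.25 and -0.40, on both sides of the dashed median of all pairs at -0.62.

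Further genes of the pathway, 85 listed by role and outside the 10 members, were counted the same way: 40 had a PBS peak within 10 kb (47.1%) and 32 a vasostatin-2 peak (37.6%). The shares over all protein-coding genes were 29.5% and 28.0%. A peak in both lists was found at 22 of these genes, in PBS alone at 18, in vasostatin-2 alone at 10, and in neither at 35, where the first 3 classes hold 17.5%, 12.0% and 10.5% of all protein-coding genes. Lysosome genes with a peak numbered 8 of 17 in PBS and 3 of 17 in vasostatin-2, and fusion genes 6 and 3 of 13. The class III PI3-kinase genes, which make the lipid that WIPI proteins read, counted 4 and 6 of 8, and cargo receptors 3 and 5 of 9. Membrane supply counted 6 and 3 of 8, conjugation 6 and 4 of 11, upstream regulators 6 and 6 of 16 and the other initiation genes 1 and 2 of 3. With at least 8 fragments the totals were 28 in PBS and 18 in vasostatin-2, beside 19.6% and 16.0% of all protein-coding genes. With at least 8 at the PBS depth, a stricter demand on the vasostatin-2 list, 10 were left there, beside 8.37%. No difference between these shares was tested, and gene length and the GC content of promoters were not matched. The role lists were made with earlier results of these data known.

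**Figure D5:**
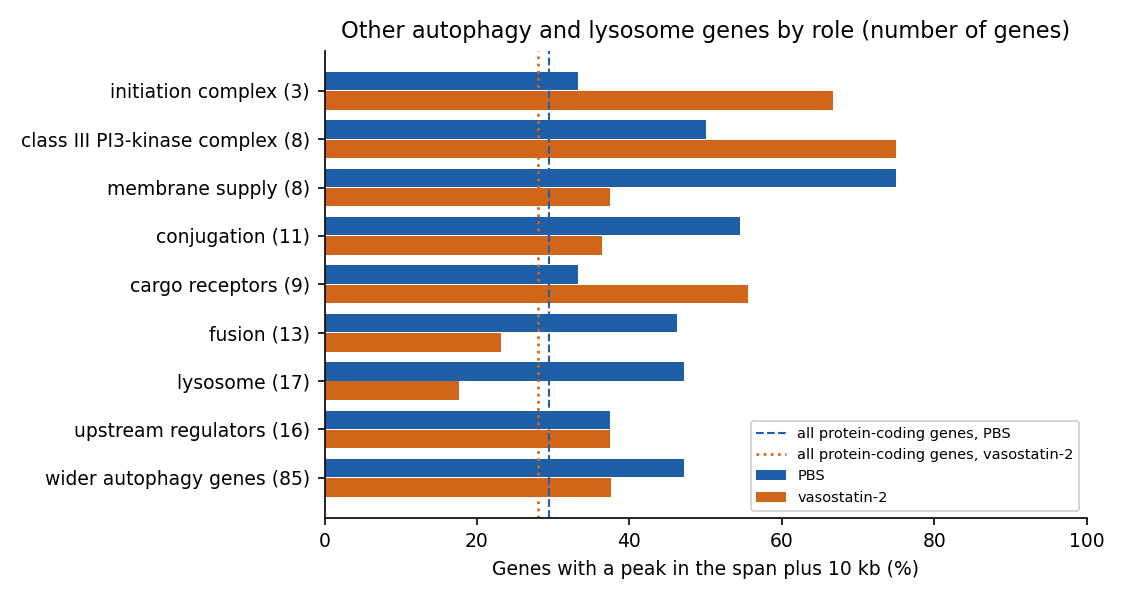
Share of genes with a peak in the gene span plus 10 kb, for 85 further autophagy and lysosome genes by role, in the PBS (blue) and vasostatin-2 (orange) lists, with dashed and dotted lines at the shares of all protein-coding genes (29.5% and 28.0%). For lysosome genes the PBS bar (47.1%) is the longer one beside vasostatin-2 (17.6%), and for the class III PI3-kinase genes (4 and 6 of 8) the shorter one.

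Peaks at 3 of these genes had more fragments than the 25 at Wipi1. Uvrag, a subunit of the class III PI3-kinase complex, had 36 fragments in PBS and 11 in vasostatin-2 at its promoter window, with 11.2-fold and 4.69-fold enrichment. Nbr1, a cargo receptor related to p62, had 28 and 11 fragments at its own window. Near Hexa, a lysosomal hexosaminidase gene, a shared peak 1648 bp outside the gene had 28 and 18. Tfe3, a close relative of TFEB, had 22 and 16 at its own window, and Rheb, the GTPase that activates mTORC1, had 22 and 19. Inside Vmp1, a membrane protein gene of autophagosome formation, a shared peak had 24 and 17. The PBS summit held more fragments at all 6, which were named for high counts. Of all 437 overlapping pairs with at least 22 fragments in PBS 84.4% were higher there too, unscaled. Choosing pairs by a high PBS count favours that order. Over all 2651 overlapping pairs the share was 60.5%, so nothing is read from the order at the 6 genes.

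Rubcn, which encodes an inhibitor of the UVRAG complex, had a vasostatin-2 peak of 11 fragments and 7.57-fold enrichment at its own window, with no PBS peak over it; an end of Fyttd1 lay 93 bp from this summit. Atg2a, a lipid transfer protein gene, had a PBS peak of 16 fragments alone at its window, and Snap29, a fusion gene, one of 12. Atg14, whose product targets the PI3-kinase to the forming autophagosome, had a PBS peak of 6 fragments at its own window. A shared peak within its 10 kb flank, of 11 PBS and 13 vasostatin-2 fragments, lay 7330 bp from Atg14 in PBS but 1601 bp from an end of Fbxo34. Atg101, a partner of ULK1, had a shared promoter peak of 10 and 7 fragments. Gabarapl2, a paralog of Gabarap, had 9 fragments in each list at its own window.

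Peak lists do not measure expression and cannot check the cell type of the culture. Of the smooth muscle markers Myh11 and Tagln had a peak within 10 kb in both lists and Acta2 and Cnn1 in neither. Pecam1 had one in PBS and Cdh5 in vasostatin-2, both endothelial markers, the macrophage marker Cd68 had one in both, and Adgre1, Pdgfra and Dpt in neither. Both lists covered 17.5% of all protein-coding genes in this way. The Myh11 peaks of the lists did not overlap each other. The Tagln peaks lay 8039 bp (PBS) and 8066 bp (vasostatin-2) from an end of Tagln, and nearer to another gene. The overlapping Cd68 peaks lay 6378 and 6319 bp from an end of Cd68, but 125 and 66 bp from one of another gene.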

How the data were processed

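Each peak list comes from 1 NR1D1 CUT&Tag library. Trimmomatic 0.39, BWA 0.7.17, MACS2 2.2.7.1 and build mm10 are named in the submitters' processing notes, without roles or settings. The deposited values per peak are a fold enrichment (a ratio), the -log10 p and -log10 q of the summit, a score equal to 10 times the -log10 q rounded down (not used), and the summit offset. All are the authors' and only describe or filter peaks within their list. Fragments at each summit were solved from the deposited fold and -log10 p as whole numbers (Poisson upper tail, 1 added to summit and background for the fold). Every peak (100%) had a solution within 0.0005. Backgrounds moved in steps of a fragment end spread over 10000 bp, a window that was assumed, giving fragment lengths of 195.9 and 182.6 bp. With floors of 0.31 and 0.381 this put the relative depth at 1.32. Whether a control library entered these backgrounds is not stated in the sources used here, and library totals were not used.

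Peaks were assigned with RefSeq gene spans of GRCm38.p6 plus 10 kb and shared when they overlapped by at least 1 bp. Intervals are exact (Clopper-Pearson, 95%) and cover counting error only, since fragments without molecular identifiers need not be independent molecules. The recovery and overlap steps were tested on simulated data (bedtools 2.31.1). Python 3.11.15 and scipy 1.17.1 were used. The members and lists were chosen with earlier results of these data known. Named are all members, the gene end nearest to their peaks and, per role list and library, up to 3 genes with the most fragments. The GC box, the fragment minimums, the ratios of single members under other depth factors and the comparison of peaks of like size were added after seeing the data, as was the naming of Ep400, Fbxo31, Ctdnep1, Fyttd1 and Fbxo34.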

Additional observations from a re-analysis of the deposited data

How the results depend on the processing

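With 6 to 25 fragments per member peak, the strictness of the peak rule sets the counts. A -log10 q of at least 5 left 3 members and 3 peaks in each list and 16 (PBS) and 9 (vasostatin-2) of the wider autophagy genes. Peaks above the median fold of their list left 2 members with 2 peaks in PBS, 3 members with 5 peaks in vasostatin-2, and 24 and 18 wider genes. At least 8 fragments left 18 wider genes in vasostatin-2, and at least 8 at the PBS depth left 3 members, 3 peaks and 10 wider genes there; both fragment settings were chosen after seeing the data. A window of 50 kb gave 15 PBS and 18 vasostatin-2 member peaks and 53 wider genes in vasostatin-2. These counts follow the rules by construction. For the q, fold and 50 kb rules the share of all protein-coding genes is not given. Differences between the lists under them therefore cannot be read as particular to autophagy genes. The summed log2 ratio of the shared members was -0.15 when scaled by the median of all overlapping pairs, outside its interval. With no depth factor it was -0.38. Under 50% reciprocal overlap, and likewise with summits within 200 bp, 25% of PBS and 20% of vasostatin-2 member peaks were shared, 2 peaks in each list. With -log10 q of at least 5 in both lists the share was 33.3% in each. A gap of 500 bp left both shares as they were, and a 3 kb window, summits in place of peaks and a motif without its flank moved no count beyond 1.5 times. No paired analysis was possible because each treatment has 1 NR1D1 library.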

Other observations

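Promoter windows under a peak held the CLEAR palindrome of TFEB in 0.883% of 2944 PBS windows and 0.981% of 1834 vasostatin-2 windows, beside 0.326% of all 32851 windows. CACGTG alone was found in 10.3% and 9.11%, beside 7.15%. The NR1D1 core AGGTCA went the other way, with 10.1% and 9.92% beside 16.3%, and so did TAGGTCA, with 1.63% and 1.91% beside 2.61%. Median GC content was 63.7% in windows under a peak of either list and 52.7% over all windows, and its part in these shares was not tested.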
